A study of Danio rerio with 57 samples.

Results

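The melanin pigment cell genes described here are 10 zebrafish genes listed by symbol: the transcription factor gene mitfa, the enzyme genes tyr, tyrp1a, tyrp1b and dct, the melanosome fibril genes pmela and pmelb, and the melanosome transporter genes slc45a2, slc24a5 and oca2. They were looked up by symbol among the 32520 rows of a table of read counts per gene, and 9 of the 10 matched 1 row each. For mitfa this was not possible, because 2 rows carry the symbol MITF (ENSDARG00000003732 and ENSDARG00000037833) and the files do not say which is mitfa and which is mitfb. Both MITF rows are therefore given by identifier and kept out of every count of the 9 matched genes. The RNA came from whole wild-type embryos of the strain OBI/WIK, pooled at 20 per library, and was sequenced with a stranded kit. Embryos were exposed to sorafenib, a drug that inhibits VEGF receptors, RAF and other kinases, to rotenone, an inhibitor of mitochondrial complex I, or to the solvent DMSO. In the early exposure scenario (start 0 hours post fertilization, hpf, in the sample labels and 2 hpf in their treatment protocol) sorafenib at 2.4 µM (4 libraries), rotenone at 25 nM (4) and DMSO (3) were sampled at 96 hpf. In the late exposure scenario (start 24 hpf) sorafenib at 1.3 or 2.4 µM, rotenone at 25 or 50 nM and DMSO were sampled at 36, 48 and 96 hpf, with 3 libraries per group except for DMSO at 48 hpf, which had 2. DMSO pools carry a control number in their labels and exposed pools carry none, so exposed pools cannot be paired with their controls.

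Melanin is made from tyrosine inside melanosomes. Tyrosinase, the product of tyr, carries out the first and rate-limiting oxidation, dopachrome tautomerase (dct) and the tyrosinase-related proteins act on later intermediates, Pmel forms the fibrils on which the pigment is laid down, and Slc45a2, Slc24a5 and Oca2 are membrane transporters that set the ions and the acidity of the organelle. In mammals and fish MITF switches on most of these genes. In the zebrafish embryo 2 kinds of cells are known to make melanin, the neural crest-derived melanophores of the skin and the retinal pigment epithelium (RPE) of the eye, and a whole-embryo library holds both. In such bulk samples, fewer cells of a type and less RNA per cell cannot be told apart.

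The 55 libraries used held between 20609990 and 86897183 counts. The 9 genes were well above the counting limit, the lowest count in any library being 105 for oca2, and all 9 passed the filter on low counts. By tube number, 3 libraries stood apart from the others of their group over all genes: T16 (sorafenib 2.4 µM, 36 hpf), T37 (rotenone 50 nM, 36 hpf) and T49 (rotenone 25 nM, 48 hpf) had median absolute deviations of 0.66, 0.48 and 0.36 on the log2 scale from the mean of the other libraries, which differed from each other by 0.14, 0.13 and 0.15. Values are CPM, a gene's count relative to the size of its library after TMM scaling, and a gene is called a DEG where the Benjamini-Hochberg adjusted p over all 24246 genes tested was under 0.05 in edgeR's quasi-likelihood test. Gene lengths were not used, so levels are compared between samples and not between genes.

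Age had the largest effect on the pigment genes. In DMSO embryos of the late exposure scenario 5 of the 9 genes were called higher at 48 than at 36 hpf and none lower (33.8% of all genes were called, 21.1% higher and 12.7% lower), and all 9 were called lower at 96 than at 48 hpf (58.6% of all genes called, 26.3% lower and 32.3% higher). The first step shows which pigment genes were higher at 48 than at 36 hpf, and no library was younger than 36 hpf. pmelb, a fibril gene, had 56.0 and 62.9 CPM at 48 hpf, against 32.5, 29.9 and 30.4 CPM at 36 hpf. tyrp1b, a tyrosinase-related enzyme gene, had 254 and 245 CPM at 48 hpf, against 164, 148 and 139 CPM at 36 hpf. In both genes every library at 48 hpf lay above every library at 36 hpf, and the log2 fold changes were 0.94 (standard error, SE, 0.15, adjusted p = 1.07e-06) and 0.73 (SE 0.17, adjusted p = 0.000754). dct rose by 0.54 (SE 0.15, adjusted p = 0.00505), pmela by 0.50 (SE 0.15, adjusted p = 0.00702) and tyrp1a by 0.47 (SE 0.17, adjusted p = 0.0327) on the log2 scale. The call of tyrp1a was lost with another scaling (adjusted p = 0.0732 with RLE factors) and with another test (adjusted p = 0.0725 with DESeq2). It was also lost with T51, a DMSO library at 48 hpf kept out of the main fit, added back (adjusted p = 0.0641). The same held without any of T29, T30, T54 or T55 (adjusted p between 0.053 and 0.178).

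The other 4 genes did not pass the test in this step. tyr had 37.2 and 25.3 CPM at 48 hpf, against 35.9, 39.3 and 35.6 CPM at 36 hpf, so that the libraries overlapped (log2 fold change -0.24, 95% interval -0.73 to 0.25). slc45a2 and slc24a5 were nearly level, with log2 fold changes of 0.01 and 0.02, and oca2 was at 0.30 (95% interval -0.08 to 0.69) with its libraries at 48 hpf above those at 36 hpf. The median of the 9 genes was 0.47, against 0.04 over all genes. Of all genes 35.7% had libraries that did not overlap in the upward direction, as 6 of the 9 pigment genes did. The MITF row ENSDARG00000003732 went the other way, with 10.0 and 8.62 CPM at 48 hpf against 13.5, 13.5 and 14.1 CPM at 36 hpf (log2 fold change -0.55, SE 0.19, adjusted p = 0.0218). This call was lost without T30 (adjusted p = 0.0531) or T55 (adjusted p = 0.204).

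Between 48 and 96 hpf all 9 genes fell, and for each of them every library at 96 hpf lay below every library at 48 hpf. Of all genes 36.4% had libraries that did not overlap in the downward direction. pmelb was at 16.4, 18.1 and 16.1 CPM at 96 hpf, against 56.0 and 62.9 CPM at 48 hpf, a log2 fold change of -1.82 (SE 0.15, adjusted p = 1.43e-14). dct was at 60.0, 56.5 and 54.1 CPM at 96 hpf, against 180.0 and 184 CPM at 48 hpf (-1.68, SE 0.15, adjusted p = 5.68e-13). For both genes every library at 96 hpf also lay below every library at 36 hpf. The same held for pmela (132, 127 and 119 CPM at 96 hpf, against 179, 156 and 149.6 CPM at 36 hpf), whereas tyrp1b at 96 hpf (157, 149.8 and 149 CPM) lay within its range at 36 hpf. The smallest change was that of slc45a2 (22.2, 20.7 and 19.5 CPM at 96 hpf, against 30.7 and 29.5 CPM at 48 hpf, log2 fold change -0.53, SE 0.21, adjusted p = 0.0275). The call of slc45a2 was lost without T54, T55, T77 or T78 (adjusted p between 0.0534 and 0.117) and with RLE factors (adjusted p = 0.0509). tyr itself was at -1.17, tyrp1a at -1.55, slc24a5 at -1.37 and oca2 at -1.35, and the median of the 9 was -1.35, against 0.08 over all genes.

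The MITF row ENSDARG00000003732 fell further than any of the 9, to 1.04, 1.23 and 0.866 CPM at 96 hpf, against 10.0 and 8.62 CPM at 48 hpf (log2 fold change -3.16, SE 0.21, adjusted p = 2.5e-17). The other MITF row, ENSDARG00000037833, stayed between 0 and 0.526 CPM in all 55 libraries (at most 47 counts) and was called in none of the 29 comparisons made. The 6 other gene lists drawn up for melanin synthesis and the other pigment and eye cells did not all follow. Between 48 and 96 hpf 32.3% of all genes were called higher and 26.3% lower, and several of these lists lay near those shares. Of 19 genes of melanosome biogenesis and transport 5 were called higher and 3 lower. Of 12 genes of melanophore specification and signalling 3 were called higher and 6 lower. For 6 iridophore genes the counts were 1 higher and 3 lower, for 10 xanthophore genes 2 higher and 7 lower, and for 7 RPE genes 1 higher and 2 lower. Among the genes of xanthophores, the yellow pigment cells, gch2, which opens pteridine synthesis, was at -1.92 and aox5, an aldehyde oxidase of these cells, at -1.47 on the log2 scale. In the same list csf1ra (0.99) and xdh (0.48) were called higher. All 9 photoreceptor genes were called higher at 96 hpf. The RPE gene called higher was rlbp1b, which encodes a retinaldehyde-binding protein, with a log2 fold change of 1.52 (adjusted p = 1.36e-09). The RPE genes called lower were otx2a (-2.71, adjusted p = 2.67e-18) and otx2b (-1.62, adjusted p = 1.95e-14).

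**Figure D1:**
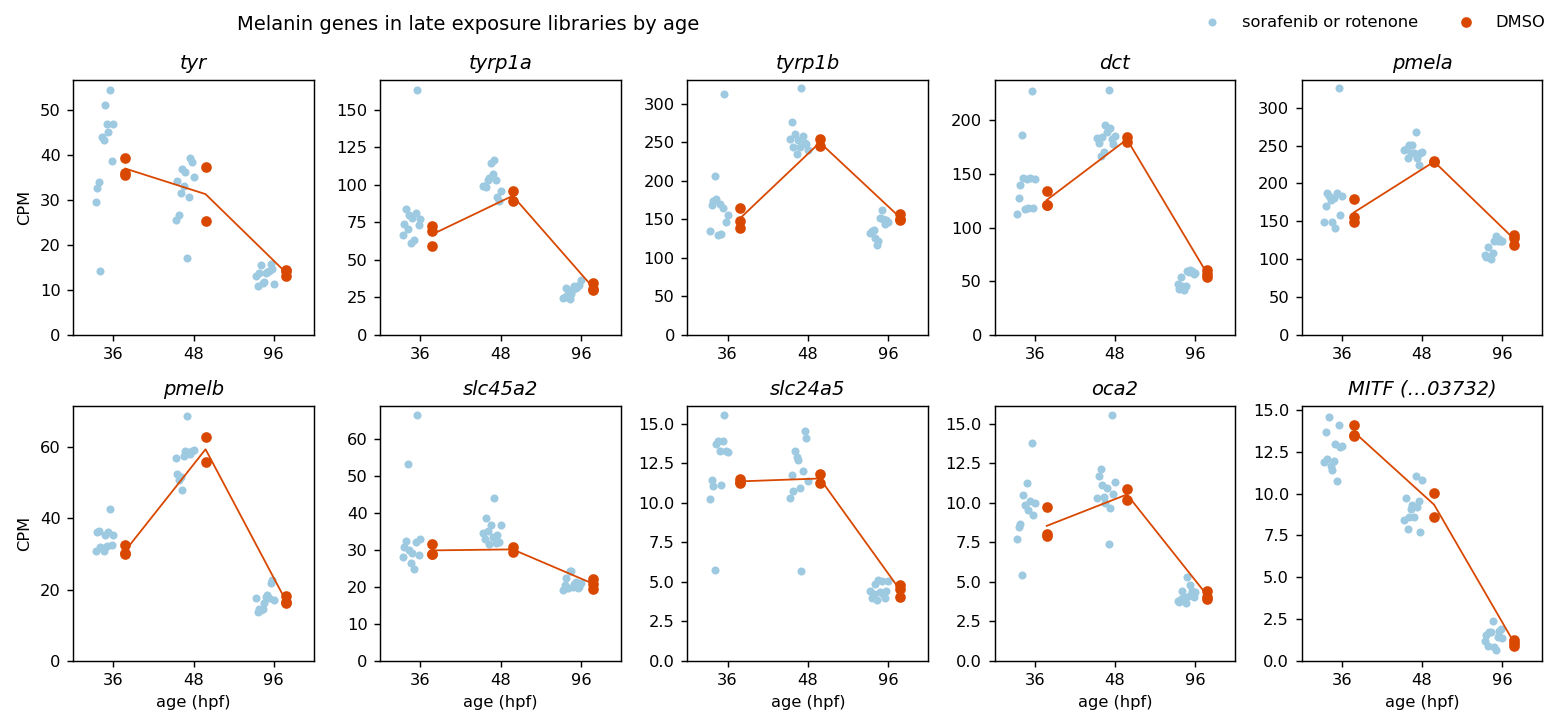
CPM (linear axes from 0) of the 9 pigment genes and of the MITF row ENSDARG00000003732 against age in the late exposure scenario. Blue points are libraries of sorafenib or rotenone groups, orange points are DMSO libraries, and the orange line joins the DMSO means; pmelb peaks at 48 hpf with 56.0 and 62.9 CPM, and the MITF row is at about 1 CPM at 96 hpf.

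The fall between 48 and 96 hpf appeared under every treatment of the late exposure scenario. In each of the sorafenib and rotenone groups, as in DMSO, the libraries at 96 hpf lay below those at 48 hpf of the same treatment for 9 of 9 genes. In DMSO, with 2 libraries at 48 hpf, this held for 36.4% of all genes. The share within the exposed groups, with 3 libraries each, was not computed, so their counts have no matching share beside them. The median level at 96 hpf was 38.3% of that at 48 hpf with sorafenib at 1.3 µM, 38.0% with sorafenib at 2.4 µM, 50.0% with rotenone at 25 nM, 36.8% with rotenone at 50 nM and 39.2% in DMSO. The value with rotenone at 25 nM was that of tyr, whose mean at 48 hpf takes in T49. That library had 17.0 CPM for tyr, the others of its group 36.2 and 30.6 CPM. The median without T49 was not computed, so a weaker fall with rotenone at 25 nM cannot be read from it. Over all 15 late libraries at 96 hpf dct lay between 42.1 and 60.6 CPM, and over all 14 at 48 hpf between 166 and 228 CPM, so that age separated the libraries whatever the embryos had been exposed to.

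Over the 18 group means the 9 genes followed each other, with Pearson correlations of log2 CPM between 0.58 (tyr with tyrp1b) and 0.99 (tyrp1a with dct) over 36 pairs, which the groups share through age. Between libraries of 1 group they did not move as a single set. In the deviations of the 55 libraries from their group means, tyr, slc24a5 and oca2 correlated with each other at 0.67 to 0.76, and tyrp1a, tyrp1b, dct, pmela and slc45a2 at 0.66 to 0.93. Between these blocks the 15 correlations were between -0.44 and 0.30. Without T16, T37 and T49 the ranges were 0.51 to 0.55, 0.56 to 0.90 and -0.33 to 0.26. The remaining gene, pmelb, was put in neither block. Over the 55 libraries it correlated at 0.23 (tyrp1a) to 0.54 (dct) with the genes of the second block. With those of the first block it correlated at -0.09 (slc24a5) to 0.004 (tyr). The blocks were chosen after these values were seen, and the points share library, depth and composition, so this is a description only. In T16 tyr was 1.62, slc24a5 1.26 and oca2 0.91 log2 units below the mean of the other libraries of the group. Of the second block slc45a2 was 0.92, dct 0.51, tyrp1b 0.45, pmela 0.17 and tyrp1a 0.01 above it. T49 had tyr 0.97, slc24a5 1.02 and oca2 0.48 below, and the second block 0.15 (tyrp1a) to 0.43 (slc45a2) above. T37 did not show this split: all 9 genes were above the other libraries of its group, tyr by 0.36 and slc24a5 by 0.23. T16 and T49 were among the 55 libraries from which the blocks were chosen.

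Against DMSO of the same age and start, none of the 9 genes was called in any of the 14 comparisons in the main fit. Under some alternatives, given below, genes were called with late sorafenib at 2.4 µM and 96 hpf. The same was seen with rotenone at 25 nM or 50 nM and 36 hpf. Over these 126 values the log2 fold changes lay between -0.35 and 0.63, 115 of them were under 0.3 in size, and the standard errors were between 0.13 and 0.24. An unadjusted p under 0.05 was found for 10 of the 126 values, and for 0.92% to 30.9% of all genes over the 14 comparisons. The share of all genes called ranged from 0% to 19.9%, the highest with late sorafenib at 2.4 µM and 96 hpf. The MITF row ENSDARG00000003732 was called in that comparison alone of the 14. With rotenone at 50 nM and 96 hpf its libraries (1.37 to 1.87 CPM) also lay above those of DMSO (0.866 to 1.23 CPM), without a call.

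**Figure D2:**
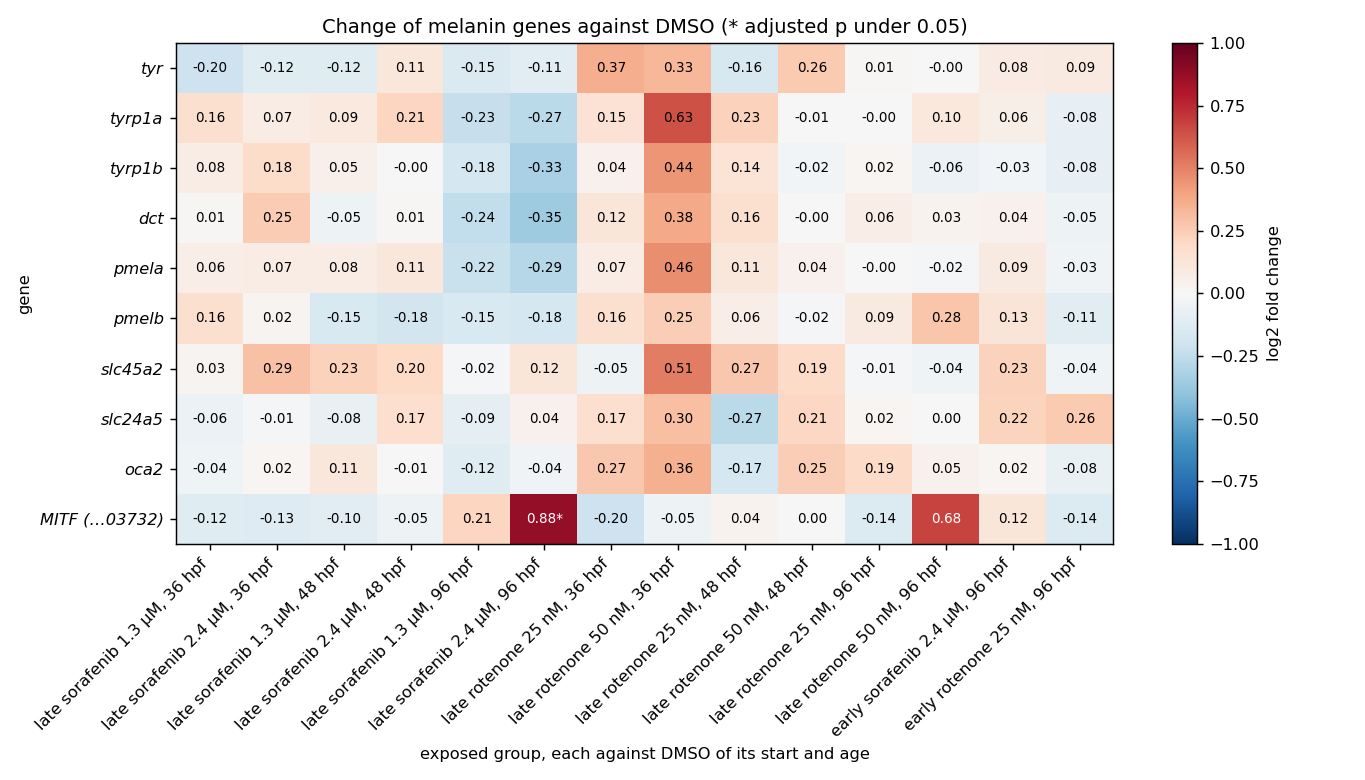
Log2 fold changes of the 9 pigment genes and of the MITF row ENSDARG00000003732 (rows) in each exposed group against DMSO of its start and age (columns), with the value printed in each cell and a star where the adjusted p was under 0.05. The only star is on the MITF row in late sorafenib at 2.4 µM and 96 hpf (0.88), and the reddest column, rotenone at 50 nM and 36 hpf, includes T37.

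Late sorafenib at 2.4 µM was the exposure with most DEGs at 96 hpf, 19.9% of all genes (7.11% higher, 12.8% lower), and here the pigment genes gave 0 of 9. The lowest of them was dct, with 45.6, 42.1 and 45.8 CPM with sorafenib, against 60.0, 56.5 and 54.1 CPM in DMSO (log2 fold change -0.35, 95% interval -0.63 to -0.07, adjusted p = 0.0669). tyrp1b had 125, 117 and 122 CPM with sorafenib, against 157, 149.8 and 149 CPM in DMSO (-0.33, 95% interval -0.64 to -0.01, adjusted p = 0.143). pmela had 103, 99.9 and 108 CPM with sorafenib, against 132, 127 and 119 CPM in DMSO (-0.29, 95% interval -0.56 to -0.02, adjusted p = 0.135). In these 3 genes and in tyrp1a (27.1, 24.1 and 27.5 CPM with sorafenib, against 34.7, 29.6 and 30.5 CPM in DMSO) every sorafenib library lay below every DMSO library, as it did in 28.5% of all genes. The other 5 overlapped, with log2 fold changes of -0.18 for pmelb, -0.11 for tyr, -0.04 for oca2, 0.04 for slc24a5 and 0.12 for slc45a2. The median of the 9 was -0.18, against -0.07 over all genes. Where only the 2 groups compared were fitted, 3 genes were called lower, tyrp1b (-0.25), dct (-0.28) and pmela (-0.21), and without T16, T37 and T49 the calls were tyrp1b (-0.25) and dct (-0.27). The 12.8% of all genes called lower belongs to the main fit, and the shares in these alternatives are not given here.

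The MITF row ENSDARG00000003732 was higher with sorafenib. It had 1.69, 1.70 and 2.37 CPM (81, 90 and 116 counts) with sorafenib at 2.4 µM, against 1.04, 1.23 and 0.866 CPM (53, 65 and 45 counts) in DMSO, and the libraries did not overlap, as in 15.2% of all genes in this direction. The log2 fold change was 0.88 (SE 0.20, 95% interval 0.47 to 1.28, adjusted p = 0.00121), and the call held in every alternative tried. Even so its level was far under the 8.58 to 9.33 CPM of sorafenib at 2.4 µM at 48 hpf. The change against DMSO differed between 96 and 48 hpf by 0.93 (SE 0.28, adjusted p = 0.0432), a difference that was lost under 11 of the alternatives (adjusted p between 0.0509 and 0.229), among them without T41, T43, T45, T54, T55, T69, T70, T76 or T78. None of the 9 pigment genes was called for this difference, beside 4.31% of all genes, and the lowest value was that of tyrp1a (-0.48, 95% interval -0.96 to 0.00, adjusted p = 0.306).

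The concentrations of sorafenib were compared at 96 hpf to see which changes grew with dose. At 1.3 µM all 9 log2 fold changes against DMSO were negative, from -0.02 for slc45a2 to -0.24 for dct, with 0 of 9 called, as 0.0206% of all genes were. Of all genes 57.1% had a negative value in this comparison, and the median was -0.15 over the 9 genes, against -0.03 over all genes. In tyrp1b, pmela and oca2 every sorafenib library lay below every DMSO library, as in 11.6% of all genes. Here dct had 47.3, 42.7 and 54.1 CPM with sorafenib, against 60.0, 56.5 and 54.1 CPM in DMSO. Directly, 2.4 µM against 1.3 µM gave 0 of 9 (16.3% of all genes called), and the differences lay between -0.15 for tyrp1b and 0.14 for slc45a2. For dct this difference was -0.11 (95% interval -0.39 to 0.17), so the dose step was not resolved. The MITF row ENSDARG00000003732 had 1.69, 1.70 and 2.37 CPM at 2.4 µM, against 1.20, 1.52 and 0.886 CPM at 1.3 µM (log2 fold change 0.66, SE 0.20, adjusted p = 0.0179). That call was lost without T70, T83 or T85 and where only these groups were fitted (adjusted p between 0.057 and 0.192). Both concentrations were set against the same DMSO libraries.

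The genes around melanin synthesis were read from 6 lists in late sorafenib at 2.4 µM against DMSO at 96 hpf, where 7.11% of all genes were called higher and 12.8% lower. Of 19 genes of melanosome biogenesis and transport, 2 rose and 2 fell: ap3b1a, a subunit of the AP-3 sorting complex, rose by 0.49 (SE 0.11, adjusted p = 0.00103) on the log2 scale, and trpm1b, a cation channel gene of pigment cells and retinal bipolar cells, fell by 0.72 (SE 0.20, adjusted p = 0.00634). pah, which makes tyrosine from phenylalanine, was at 0.26 (adjusted p = 0.0477) and vps18, a HOPS complex subunit, at -0.19 (adjusted p = 0.0235); each of these calls was lost in 8 alternatives. Of 12 genes of melanophore specification and signalling, 4 rose and 1 fell. pomca, the precursor of melanocyte-stimulating hormone and ACTH, rose most (1.28, SE 0.21, adjusted p = 6.84e-06). tfec, a relative of MITF, was at 0.46 (adjusted p = 0.0133) and sox10, a neural crest transcription factor gene, at 0.34 (adjusted p = 0.00458), and tfap2a, another neural crest factor gene, fell by 0.31 (adjusted p = 0.00111). kita, the receptor gene on which melanophores depend for migration and survival, did not pass (0.38, SE 0.28, adjusted p = 0.379). foxd3, a further neural crest factor gene, named here after its value was seen, was at 0.31 (adjusted p = 0.0462) and was not followed through the alternatives. The calls of sox10 and trpm1b were lost without T70 (adjusted p = 0.0831 and 0.0547), and that of tfec without T69, T77 or T78 (adjusted p between 0.0644 and 0.145). That of tfap2a was lost where only the 2 groups compared were fitted (-0.24, adjusted p = 0.0523).

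The lists of the other pigment cell types and of the eye were read beside the same shares of all genes, 7.11% higher and 12.8% lower. Of 6 iridophore genes 3 rose and 1 fell; the 3 that rose, paics (1.04, SE 0.22), atic (0.65, SE 0.14) and gart (0.35, SE 0.12), encode purine synthesis enzymes that other dividing cells use as well, and mpv17, a mitochondrial membrane protein gene, fell by 0.50 (SE 0.15). The call of gart was lost in 5 alternatives and that of mpv17 without T70 or T77. Of 10 xanthophore genes none rose and 4 fell, with gch2 at -0.48 (SE 0.11) and slc2a15b, a sugar transporter family gene, at -0.46 (SE 0.12). The call of gch2 held in every alternative tried, whereas that of slc2a15b was lost without T70 (adjusted p = 0.124) and where only the 2 groups were fitted (adjusted p = 0.137). The other calls were slc2a11b, of the same transporter family (-0.33, adjusted p = 0.0186), and aox5 (-0.28, adjusted p = 0.0429), which were lost in 4 alternatives (adjusted p between 0.0706 and 0.127) and 8 alternatives (adjusted p between 0.0559 and 0.177). Of 7 RPE genes none rose and 2 fell, rlbp1b (-1.01, SE 0.15) and rdh5, a retinol dehydrogenase gene (-0.67, SE 0.16), and the summed level of the list was between 111 and 120.2 CPM with sorafenib, against 141 to 147 CPM in DMSO. All 9 photoreceptor genes fell, with a median of -2.75, among them the cone opsin genes opn1sw1 (-2.97), opn1sw2 (-2.91) and opn1mw1 (-2.89) and the cone transducin gene gnat2 (-2.76). Their summed level was between 361 and 1458 CPM with sorafenib, against 5502 to 6511 CPM in DMSO, and no gene of either list was at 0 in these libraries. The summed level of the 9 melanin genes was between 341 and 364 CPM with sorafenib, against 411 to 446 CPM in DMSO. The part of the eye in the values of the melanin genes was not tested.

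**Figure D3:**
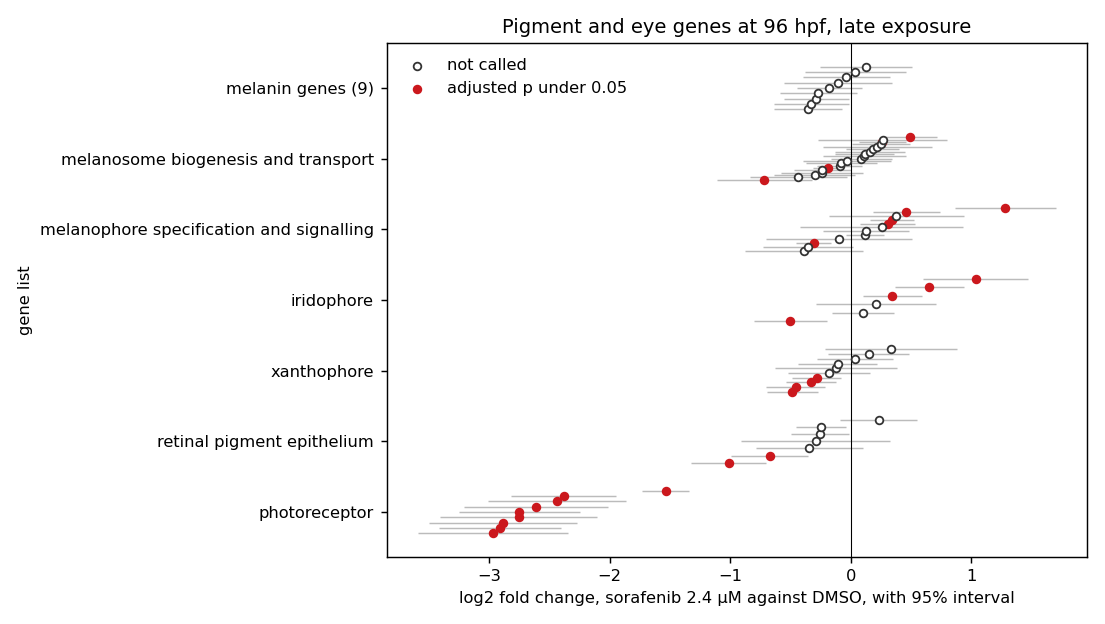
Log2 fold changes with 95% intervals for late sorafenib at 2.4 µM against DMSO at 96 hpf, 1 point per gene, grouped by gene list. Filled red points have an adjusted p under 0.05; the 9 melanin genes lie between -0.35 and 0.12 with none filled, whereas the photoreceptor genes are all filled and have a median of -2.75.

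The start of exposure was compared at 96 hpf. With an early start, sorafenib at 2.4 µM gave log2 fold changes between -0.03 (tyrp1b) and 0.23 (slc45a2), with 0 of 9 called (0.0289% of all genes) and every gene overlapping with DMSO. dct had 63.2, 59.9, 49.3 and 53.7 CPM with early sorafenib, against 60.9, 49.4 and 54.4 CPM in early DMSO. For 44.2% of all genes the early minus late difference of the sorafenib effect was negative. It was positive for 9 of the 9 pigment genes (median 0.30, against 0.05 over all genes) and none was called, where 8.03% of all genes were. It was largest for dct (0.40, 95% interval 0.01 to 0.78, adjusted p = 0.231) and pmela (0.38, 95% interval 0.00 to 0.75, adjusted p = 0.242). For the MITF row ENSDARG00000003732 the difference was -0.75 (95% interval -1.33 to -0.18, adjusted p = 0.0994), and it was called without T1 (-0.89, adjusted p = 0.0422) and without T16, T37 and T49 (-0.81, adjusted p = 0.0369). The early and late groups share no library, and each has its own DMSO.

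DMSO itself was compared between starts as well. tyr had 18.8, 16.4 and 14.5 CPM in early DMSO, against 14.4, 13.1 and 14.1 CPM in late DMSO (log2 fold change 0.26, 95% interval -0.19 to 0.70), and its early libraries all lay above the late ones, as in 9.63% of all genes. slc45a2 was the reverse case, with every early library below every late library, as in 13.1% of all genes. Called were 0 of the 9 genes and 0.458% of all genes. Early rotenone at 25 nM gave 0 of 9 against early DMSO, with log2 fold changes between -0.11 and 0.26, in a comparison where 0% of all genes were called. The start difference of the rotenone effect lay between -0.27 (oca2) and 0.24 (slc24a5), again with 0 of 9 called and 0% of all genes.

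**Figure D4:**
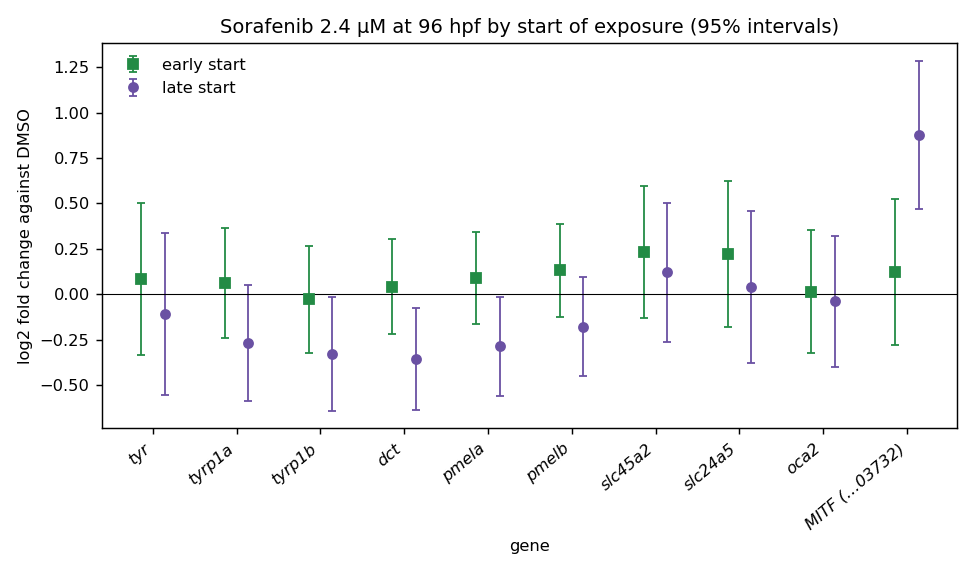
Log2 fold changes against DMSO at 96 hpf for sorafenib at 2.4 µM with an early start (green squares, left in each pair) and a late start (purple circles), with 95% intervals, for the 9 melanin genes and the MITF row ENSDARG00000003732. For dct the values are 0.04 and -0.35, and for the MITF row 0.12 and 0.88.

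Rotenone at 50 nM and 36 hpf was the exposure in which the melanin genes stood furthest above DMSO, and the values of all 9 were smaller without T37. All 9 log2 fold changes were positive (0.25 to 0.63, median 0.38, against 0.04 over all genes), 6 of 9 had an unadjusted p under 0.05 (14.9% of all genes did), and 0 of 9 were called (0.396% of all genes). Of all genes 43.8% had a negative value in this comparison. tyrp1a had 163, 73.1 and 76.9 CPM with rotenone, against 72.7, 59.2 and 69.2 CPM in DMSO, the highest being T37 (log2 fold change 0.63, SE 0.16, adjusted p = 0.0521). slc45a2 had 66.6, 28.7 and 32.9 CPM with rotenone, against 31.6, 28.9 and 28.9 CPM in DMSO (0.51, SE 0.19, adjusted p = 0.173). In each of the 9 genes T37 was the highest of the 3 rotenone libraries, and in tyrp1a and slc24a5 all 3 lay above DMSO, as in 9.01% of all genes. Without T37 the log2 fold changes were 0.16 for tyrp1a, 0.08 for pmela, 0.07 for dct, 0.05 for slc45a2 and 0.00 for tyrp1b, and 0.22 for slc24a5, 0.21 for tyr, 0.17 for oca2 and 0.13 for pmelb, each with an adjusted p of 1. With T37 kept and T38 or T40 left out, 5 or 4 of the 9 were called. The 0.396% of all genes called belongs to the main fit, and the shares without T38 or T40 are not given here. Whether the melanin genes were called more often than other genes there cannot be told from these counts. Over the whole lists, the 6 iridophore genes summed to 1900.2 CPM in T37 and to 1129 and 1058 CPM in T38 and T40, the 7 RPE genes to 213, 123 and 129 CPM, the 10 xanthophore genes to 722, 712 and 758 CPM and the 9 photoreceptor genes to 63.1, 54.4 and 55.5 CPM in the same order. The 19 genes of melanosome biogenesis and transport summed to 358 CPM in T37 and to 338 and 346 CPM in T38 and T40. The 12 genes of melanophore specification and signalling summed to 268, 231 and 219 CPM in that order. Of 11 iridophore symbols 6 were matched, and paics, atic and gart among them encode purine synthesis enzymes that other dividing cells use as well. The iridophore sum is therefore not a measure of iridophores alone. The part of these cell types in the values of T37 was not tested.

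**Figure D5:**
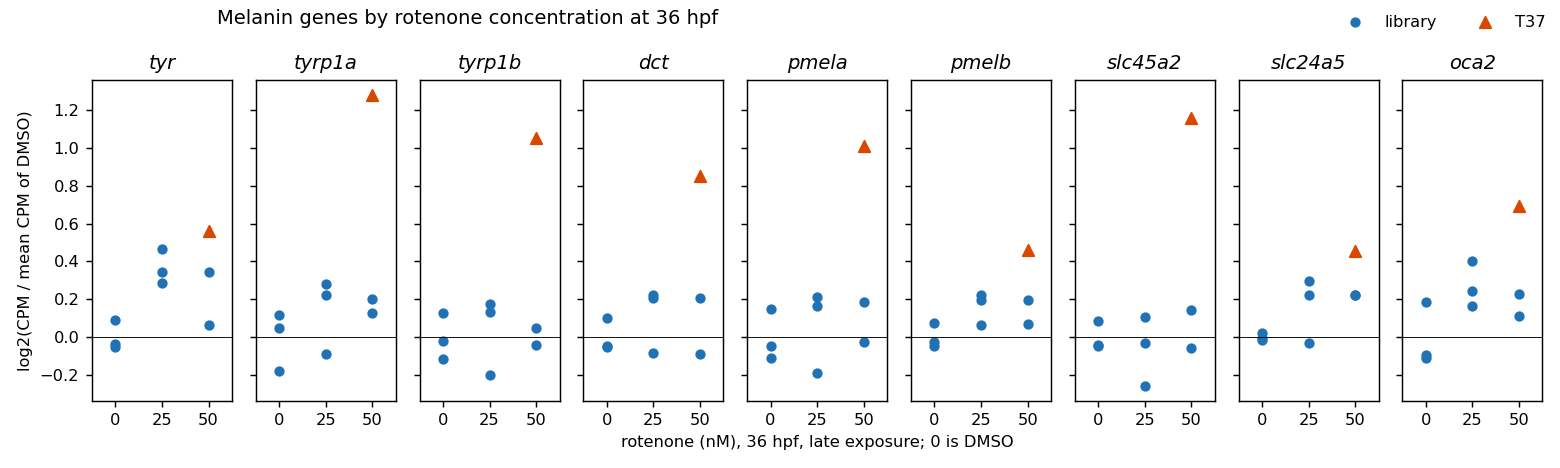
Log2 ratio of each library's CPM to the mean CPM of DMSO for the 9 melanin genes at 36 hpf (late exposure) by rotenone concentration, 0 nM being DMSO. The triangle is T37, the highest point at 50 nM in every panel; the circles at 50 nM lie close to those at 25 nM.

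At 25 nM and 36 hpf, tyr had 50.9, 46.8 and 45.1 CPM with rotenone, against 35.9, 39.3 and 35.6 CPM in DMSO. Its libraries did not overlap, as in 14.9% of all genes in this direction, and the log2 fold change was 0.37 (95% interval -0.07 to 0.80, adjusted p = 0.744). Where only the 2 groups were fitted tyr was called (0.36, adjusted p = 0.00156). The other 8 genes overlapped with DMSO and 0 of 9 were called, with 0.0866% of all genes called. Rotenone at 50 nM against 25 nM at 36 hpf gave 0 of 9 as well (5.61% of all genes), with tyrp1a (0.49, adjusted p = 0.0527) and slc45a2 (0.57, adjusted p = 0.062) nearest to the threshold and T37 in the 50 nM group. The same step gave 0 of 9 at 48 hpf, beside 2.67% of all genes, and 0 of 9 at 96 hpf, beside 0.0701%.

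At 48 and 96 hpf rotenone gave no call among the 9 genes. At 48 hpf the log2 fold changes were between -0.27 (slc24a5) and 0.27 (slc45a2) at 25 nM and between -0.02 and 0.26 at 50 nM, with 0 of 9 called in each (0% and 0.0866% of all genes). In tyrp1a, dct, pmela and slc45a2 every library at 25 nM lay above every DMSO library, as in 14.7% of all genes. At 50 nM this held for slc45a2, beside 10.7% of all genes. In the 25 nM group T49 was the lowest for tyr (36.2, 17.0 and 30.6 CPM with rotenone, against 37.2 and 25.3 CPM in DMSO) and the highest for slc45a2 (33.3, 44.0 and 31.8 CPM, against 30.7 and 29.5 CPM). At 96 hpf the range was -0.01 to 0.19 at 25 nM and -0.06 to 0.28 at 50 nM, where pmelb had 21.9, 22.6 and 16.9 CPM with rotenone, against 16.4, 18.1 and 16.1 CPM in DMSO (0.28, 95% interval 0.01 to 0.55, adjusted p = 1). There 0% and 0.00412% of all genes were called. At 50 nM every library of tyrp1b (144 to 148 CPM) lay below every DMSO library (149 to 157 CPM), as in 11.9% of all genes. The MITF row ENSDARG00000003732 had 1.77, 1.87 and 1.37 CPM with rotenone at 50 nM, against 1.04, 1.23 and 0.866 CPM in DMSO, without overlap (8.02% of all genes), but did not pass the test (0.68, SE 0.20, adjusted p = 0.938). For 50 nM against 25 nM at 96 hpf this row was not called in the main fit (adjusted p = 0.184). It was called without T74 (1.20, adjusted p = 0.0151) and without T16, T37 and T49 (0.81, adjusted p = 0.0413).

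Sorafenib at the earlier ages gave no call among the 9. At 36 hpf the log2 fold changes were between -0.20 (tyr) and 0.16 at 1.3 µM and between -0.12 (tyr) and 0.29 (slc45a2) at 2.4 µM, with 0.0454% and 2.23% of all genes called. At 2.4 µM T16 spread the group: tyr had 14.2, 43.9 and 43.3 CPM with sorafenib, against 35.9, 39.3 and 35.6 CPM in DMSO, and slc45a2 had 53.2, 30.0 and 26.5 CPM, against 31.6, 28.9 and 28.9 CPM, T16 being the first value of each. The RPE list summed to 207 CPM in T16 and to 133 and 123 CPM in T18 and T20. In that order the iridophore list summed to 1513, 1155 and 1204 CPM and the xanthophore list to 669, 776 and 714 CPM. The sums were 328, 345 and 348 CPM for melanosome biogenesis and transport and 200, 211 and 210 CPM for melanophore specification and signalling. For photoreceptors they were 61.4, 58.2 and 54.8 CPM. The part of these cell types in the values of T16 was not tested. At 48 hpf the values were between -0.15 and 0.23 at 1.3 µM and between -0.18 and 0.21 at 2.4 µM, with 0.181% and 0.404% of all genes called. At 1.3 µM every sorafenib library of tyrp1a, pmela and slc45a2 lay above every DMSO library, as in 12.4% of all genes. At 2.4 µM this held for the same genes and slc24a5, beside 13.5% of all genes. For tyrp1a at 48 hpf, 103, 104 and 115 CPM with sorafenib at 2.4 µM stood against 95.9 and 89.4 CPM in DMSO (0.21, 95% interval -0.14 to 0.57). The dose steps at 36 and 48 hpf also gave 0 of 9 (0.705% and 0.00412% of all genes).

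Sorafenib at 2.4 µM and rotenone at 50 nM, the higher concentrations of both substances, were compared directly at each age. At 96 hpf 2 of 9 genes were called lower with sorafenib, beside 11.8% of all genes (19.2% were called in either direction). pmelb had 14.3, 14.4 and 16.1 CPM with sorafenib, against 21.9, 22.6 and 16.9 CPM with rotenone (log2 fold change -0.45, SE 0.13, adjusted p = 0.0127). dct had 45.6, 42.1 and 45.8 CPM with sorafenib, against 59.8, 56.7 and 58.0 CPM with rotenone (-0.39, SE 0.14, adjusted p = 0.0443). In both the libraries did not overlap, as in 27.2% of all genes in this direction. The call of dct was lost when any of the 6 libraries was left out (adjusted p between 0.0637 and 0.154), with RLE factors (0.0968) and with DESeq2 (0.0824), and that of pmelb without T69, T87 or T88 (adjusted p between 0.0584 and 0.0837). At 36 hpf tyrp1a was called lower with sorafenib (70.4, 80.1 and 61.03 CPM, against 163, 73.1 and 76.9 CPM with rotenone, -0.56, SE 0.16, adjusted p = 0.0187, 1 of 9 beside 5.39% of all genes, with 9.56% called in either direction). Without T37 it was at -0.09 (adjusted p = 0.743), and the call was also lost without T20 (-0.47, adjusted p = 0.0619). At 48 hpf 0 of 9 were called (1.97% of all genes), with values between -0.25 for oca2 and 0.22 for tyrp1a.

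The genes most like the pigment genes over the 18 group means were tmeff1b (Pearson r 0.99 with the mean of the 9 standardised log2 CPM), INSM1 (0.99), HES6 (0.99), ATXN7L2 (0.99) and KDM1A (0.99). Over the 14 log2 fold changes against DMSO the genes nearest to the median of the 9 were ACTR10 (0.91), DNAJA3 (0.90), mia2 (0.89), EML2 (0.89) and EVL (0.89). These sets of 5 have no gene in common, and both are descriptions picked from all genes tested, over groups that share age or DMSO libraries.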

How the data were processed

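The deposited table holds counts per gene. The authors aligned the reads with HISAT2 2.1.0 to GRCz11, kept those with a mapping quality over 30, counted them with featureCounts 2.0.3 and pooled no replicates; SAMtools and MultiQC 1.11 were also used per the labels. The strand setting and the annotation release are not given in the sources used here, so overlapping genes may share reads. Of 57 libraries 55 were used. Following the study, T14 (DMSO, early start, 13 counts in all) and T51 (DMSO, 48 hpf) did not enter the fit. A separate table of sample information was not used. Genes were filtered with filterByExpr (24246 left), scaled with TMM and fitted with 1 coefficient for each of 18 groups in edgeR 4.0.16 (R 4.3.3; glmQLFit, glmQLFTest), with Benjamini-Hochberg adjustment over all genes. The SE is the absolute log2 fold change divided by the root of F. The 29 comparisons were 14 with DMSO, 2 of age, 6 of dose, 3 of start, 1 of the sorafenib effect between ages and 3 between substances. Alternatives were DESeq2 1.42.0, RLE factors, no filter, a mean count of at least 10, only the groups compared, T51 added back, each library left out, T16, T37 and T49 left out together and, for early against late DMSO, the control number as a block. The steps were tested on simulated data. Symbols were matched through the paper's supplement and a table of gene names; tyrp1a was named by the supplement and tyrp1b taken as the remaining TYRP1 row. Named were the listed genes, both MITF rows, kita, sox10 and tfec, and from each other list up to 4 DEGs with the largest change in late sorafenib 2.4 µM at 96 hpf. The list genes foxd3, csf1ra, xdh, otx2a and otx2b were named after their values were seen and were not followed through the alternatives. Genes, lists and the set of 3 libraries were chosen with earlier results of these data known. Depth was 20609990 to 86897183 counts, and p-values measure the spread between pools of 20 embryos.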

Additional observations from a re-analysis of the deposited data

Results flagged for a closer look

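Among the groups with 4 libraries, 20 gene and group combinations were examined for a library far from the others, where chance would mark about 1 in 20. For the MITF row ENSDARG00000003732 in early sorafenib at 2.4 µM, T1 stood apart with 1.67 CPM, the others being at 1.15, 1.23 and 1.24 CPM, a gap of 0.832 of the range. For slc45a2 in early rotenone at 25 nM, T10 stood apart with 20.1 CPM, the others being at 17.3, 17.0 and 17.4 CPM, a gap of 0.853 of the range. The change of the MITF row ENSDARG00000003732 with late sorafenib at 2.4 µM against DMSO differed between 96 and 48 hpf by 0.93 on the log2 scale (the change was 0.88 at 96 hpf and -0.05 at 48 hpf; adjusted p = 0.0432 for the difference).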

How the results depend on the processing

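None of the single gene values followed through the alternatives reversed its direction. These were the DEGs among the 9 genes and the MITF rows, and the named genes of the other lists in late sorafenib 2.4 µM at 96 hpf. Values of the 9 genes that were not called were not checked for this. The counts of the 9 genes called moved by over 1.5 times as follows, and the shares of all genes called under the same alternatives are not given here. With DESeq2 there were 2 calls in rotenone 50 nM against DMSO at 36 hpf, 4 in rotenone 50 against 25 nM at 36 hpf, 2 in sorafenib against rotenone at 36 hpf and 1 at 96 hpf. With RLE factors there were 3 in rotenone 50 against 25 nM at 36 hpf and 1 in sorafenib against rotenone at 96 hpf, and with T51 added back 1 and 1. With only the groups compared there were 1 in rotenone 25 nM at 36 hpf, 3 in late sorafenib 2.4 µM at 96 hpf, 2 in the sorafenib effect between ages (tyrp1a and pmela), and 0 and 5 in sorafenib against rotenone at 36 and 96 hpf. Without T16, T37 and T49 there were 2 in late sorafenib 2.4 µM at 96 hpf, 1 in sorafenib 2.4 against 1.3 µM at 36 hpf (tyr) and 0 in sorafenib against rotenone at 36 hpf. Leaving out 1 library at a time gave 0 to 5 calls in rotenone 50 nM at 36 hpf and in rotenone 50 against 25 nM at 36 hpf, 4 to 5 in DMSO at 48 against 36 hpf, 8 to 9 in DMSO at 96 against 48 hpf, 0 to 3 and 0 to 1 in sorafenib against rotenone at 36 and 96 hpf, and the count reported in the other comparisons. The cause was not tested. Calls of 19 single gene values were lost in at least 1 alternative, in 26 cases under another setting and in 62 with a library left out. Leaving out T16, T37 and T49 moved the median of all genes by -0.11 in DMSO at 96 against 48 hpf. Exposed libraries carry no replicate number, and of the comparisons made only that of early with late DMSO at 96 hpf shared numbers between its groups (controls 1, 2 and 3). A replicate block by control number, chosen after seeing the data, left 0 of the 9 genes called there. The deviations of same-numbered libraries from their group means correlated at 0.12, -0.01 and 0.18 over genes. Pairs with unlike numbers lay between -0.20 and 0.09, and control 2 of the early start correlated best with control 3 of the late start (0.06). Whether same-numbered libraries share more than the number cannot be told from so few weak correlations. No paired analysis was possible elsewhere because the groups share fewer than 2 numbers.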
